A study of Mus musculus with 16 samples.

Results

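Untreated bone marrow derived macrophages labelled Ndst1-deficient were compared with untreated macrophages labelled wild-type on 8 of the 16 single-colour Illumina mouse arrays of the study, chosen by the genotype and dose in the labels. The 4 wild-type arrays came from Ndst1f/fLysMCre- mice and the 4 Ndst1-deficient arrays from Ndst1f/fLysMCre+ mice, all 12 weeks old and on the C57BL6 background. Both genotypes thus carried the floxed Ndst1 allele, and they differed in Cre, which is driven by the Lyz2 (LysM) promoter and deletes floxed genes in myeloid cells. The macrophages were grown with recombinant mouse Macrophage Colony Stimulating Factor and then kept for 24 hours in medium with lipoprotein-deficient serum and 0 µg/ml aggregated LDL (agLDL), and the other 8 arrays were given 50 µg/ml. By the labels each genotype had 2 mice with 2 arrays each. An array is named here by its mouse number and its duplicate number (1.1, 1.2, 2.1 and 2.2). Same-numbered arrays of the 2 labels were set against each other, although they are different mice.

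Ndst1 encodes an enzyme of the Golgi apparatus that removes acetyl groups from glucosamine residues of growing heparan sulfate chains and sulfates them in their place. Later sulfation of the chain builds on this step, and sulfated heparan sulfate on proteoglycans of the cell surface binds chemokines, growth factors and lipoproteins. The comparison asks what macrophages labelled as lacking the enzyme express before any lipid load, and interferon signalling is among the questions known for this study. Ndst1 itself was not analysed here, so the labels could be checked only through Lyz2, the lysozyme gene into which Cre is inserted. Of its probes, ILMN_2939681 differed by -0.07 ± 0.085 (log2, Ndst1-deficient minus wild-type, ± SE) and the dimmer ILMN_2766780 by -0.54 ± 0.17, with limma adjusted p of 0.749 and 0.176. The third, ILMN_1252076, lay near the top of the scale. The directions below therefore rest on the labels.

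The 8 arrays detected between 9241 and 10115 probes, and the raw 75th percentile lay between 312.2 and 386.5, with both the highest percentile and the most detected probes on the Ndst1-deficient 1.2 array. The number accounted for 74.6% of the variance of the 8 arrays (42.9% by chance for 4 levels), and the genotype label for 9.53% (14.3% by chance for 2 levels). Arrays of a number lay at the same position on both slides, so number, and with it mouse number, cannot be told apart from slide position. The closest array was the one of the same number under the other label for 7 of the 8 arrays. Each of the 2 slides held the arrays of 1 genotype label, and a difference between labels cannot be told apart from one between slides in any value below. The 2 arrays of a mouse share their animal, so p-values over arrays measure a spread that may be partly technical.

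Macrophage identity genes were present under both labels. Of 25 listed, all 21 with a probe were measured, among them Aif1 (-0.34 ± 0.11), Tyrobp (-0.30 ± 0.15) and Cebpb (-0.16 ± 0.068). Of the 21, 8 lay above 0, up to Maf at 0.23 (named after its value was seen), and the median was -0.04. In this list 0 passed the test, where 0.955% of all features did. The other probe of Aif1 detected on all 8 arrays differed by 0.03 ± 0.085. The mean level of the list ran from 11.95 to 12.25 on wild-type arrays and from 11.92 to 12.18 on Ndst1-deficient arrays (log2 signal). Of the 10 T and NK cell markers with a probe and the 7 mast cell and basophil markers with a probe, 0 passed the detection filter. Markers of dendritic cells, B cells and erythroid cells had 1 measured gene each, Batf3, Cd79b and Epor. These were detected on all 8 arrays and differed by -0.03, -0.08 and 0.10, and 0 passed the test. Neutrophil markers were measured for 13 of 15 genes, with a mean level of 8.09 to 8.96 on wild-type arrays and 8.49 to 9.13 on Ndst1-deficient arrays. The granule protease Prtn3 differed by 0.58 ± 0.21 and was higher in all 4 pairs, and Csf3r, named after its value was seen, differed by -0.50. Of the 13 differences, 11 lay above 0, against 52.9% of all features, and 0 passed. The median of these markers was 0.09, from -0.20 to 0.40 over the 4 pairs, and -0.03 with agLDL. Stromal and endothelial markers were measured for 4 of 16 genes and lay at 6.97 to 8.08 and at 7.01 to 8.39. All 4 differences were above 0, with a median of 0.18 and Sparc the highest at 0.31 ± 0.12, and 0 passed. The part of these cells in the differences below was not tested.

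Macrophages labelled Ndst1-deficient had lower Ssbp1, Ap3d1, Cul4a and Clip1 and higher Rexo2 and Leng1 than macrophages labelled wild-type, and most genes that passed the test were lower. For Cul4a and Clip1 this holds for 1 probe each, and their other probes differed by -0.02 to 0.06. Ssbp1, whose product coats single-stranded mitochondrial DNA during its replication, had the largest difference of the called genes, 2.76-fold. Ap3d1, a subunit of the adaptor complex that sorts membrane proteins to lysosomes, was 1.65-fold lower, and Cul4a, the scaffold of a ubiquitin ligase, 1.68-fold. In all, 73 of 7647 features passed (0.955%), 13 higher (0.17%) and 60 lower (0.785%), by limma with the number as a block at an adjusted p under 0.05. They were 69 named genes and 4 unnamed probes. A lower signal can come from fewer cells of a type or from less RNA per cell, and bulk RNA cannot tell these apart.

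That count rests on treating arrays as replicates. With the 2 arrays of each mouse averaged, 2 mice against 2, limma called 0 of 7647 (383 at an unadjusted p under 0.05 against 382 expected by chance, and a smallest adjusted p of 0.376). With the mouse number as a block on those averages it called 1, Ssbp1. Both fits also held the averages with agLDL, which come from the same mice and entered the estimate of the spread as if independent. Of the 73 features, 68 had an unadjusted p under 0.05 over the mouse averages. The 8 untreated arrays alone, with the number as a block, gave 0 calls and 887 features at an unadjusted p under 0.05, and all 73 were among them. These fits reuse the mean difference on the same arrays that selected the 73 features. The overlap is therefore no separate support for them.

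**Figure D1:**
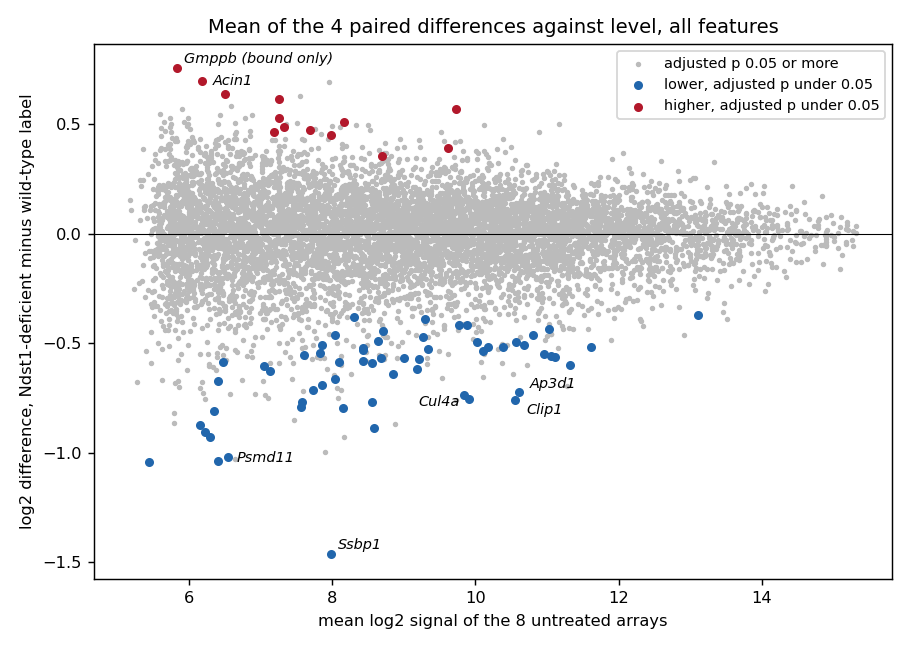
Each point is a gene or unnamed probe, with its mean log2 signal over the 8 untreated arrays on the x axis and the mean of its 4 paired log2 differences (Ndst1-deficient minus wild-type label) on the y axis. The 60 called features below 0 reach -1.46 at Ssbp1, and of the 13 above 0, Acin1 stands at 0.70 and Gmppb, not above background on wild-type arrays, has only a bound.

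The differences of the 73 features were between 0.35 and 1.46 in size on the log2 scale, with a median of 0.57 (0.56 with Gmppb and Ankrd13d, which 1 label did not detect, at their bounds). Of the 71 features detected under both labels, 30 were 1.5-fold or larger and 3 were 2-fold or larger. All 73 had the same sign in all 4 pairs, as had 1582 of all features (20.7%), 772 higher and 810 lower. In 45 of the 73 the 4 arrays of one label did not overlap the 4 of the other, against 3.6% of all features. The 73 were called on the differences of these same arrays, so neither count is separate support for them. Over all features the median difference was 0.01, and 52.9% lay above 0. An unadjusted p under 0.05 was found for 1094 features (14.3%), 446 higher (5.83%) and 648 lower (8.47%), against 382 expected by chance. Split into 5 bins by level, the brightest 1530 features held 3 called ones, all lower, and the bins from the dimmest upward held 12, 21, 19 and 18.

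Ssbp1 read 8.63, 8.79, 8.52 and 8.91 on the wild-type arrays 1.1, 1.2, 2.1 and 2.2, and 7.57, 7.11, 7.41 and 6.90 on the Ndst1-deficient arrays in the same order (log2 signal, as in all levels below). The highest Ndst1-deficient array lay well below the lowest wild-type array. The mean difference was -1.46 ± 0.15 (limma adjusted p = 0.00103). As for the other ± values, this SE comes from the limma fit to the untreated and agLDL arrays together. It is not the spread of the 4 pairs, which differed by -1.055, -1.674, -1.113 and -2.014 for Ssbp1. Ssbp1 passed the test whichever of the 8 arrays was left out, with adjusted p between 0.00188 and 0.00976.

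Ap3d1 read 11.01, 10.94, 11.01 and 10.91 on wild-type arrays and 10.29, 10.36, 10.29 and 10.04 on Ndst1-deficient arrays. The wild-type arrays were nearly equal, and all Ndst1-deficient arrays lay below them, with a difference of -0.72 ± 0.075 (limma adjusted p = 0.00103). Cul4a read 10.20, 10.37, 10.39 and 10.16 against 9.58, 9.73, 9.36 and 9.46, again without overlap (-0.75 ± 0.095, limma adjusted p = 0.00627). Clip1, which follows the growing ends of microtubules, read 11.15, 10.69, 10.82 and 11.07 against 10.40, 10.10, 9.90 and 10.31. In each pair the Ndst1-deficient array was the lower one, by 0.76 ± 0.11 on average (limma adjusted p = 0.0109).

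Nfam1, an immune receptor that signals through an activation motif in its tail, read 8.12, 7.66, 8.35 and 7.71 on wild-type arrays and 7.41, 6.52, 7.63 and 7.20 on Ndst1-deficient arrays. The highest Ndst1-deficient array lay just below the lowest wild-type array (-0.77 ± 0.12, limma adjusted p = 0.0207). Psmd11, a subunit of the regulatory particle of the proteasome, read 7.39, 7.34, 6.90 and 6.57 against 6.14, 6.36, 5.67 and 5.94. These levels were low, and the probe was detected on 3 of the 4 Ndst1-deficient arrays (-1.02 ± 0.16, limma adjusted p = 0.0207). Another proteasome subunit, Psmd8, differed by -0.56 ± 0.12 (limma adjusted p = 0.0452) and was named after its value was seen.

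Gstt2, a glutathione transferase, was lower by 1.04 ± 0.17 and was detected on 3 Ndst1-deficient arrays. Crbn, a substrate receptor of Cul4a ubiquitin ligases, differed by -0.58 ± 0.10. The scavenger receptor Stab2 differed by -0.57 ± 0.094, the phosphodiesterase Gdpd5 by -0.58 ± 0.096, the membrane protein Ttyh2 by -0.79 ± 0.13 and D10Wsu102e by -0.55 ± 0.084, all past the threshold (limma adjusted p between 0.0207 and 0.0268). The labels overlapped for Crbn, Stab2, Gdpd5 and Ttyh2 although every pair was lower, since the numbers differed in level. Stab2, for example, read 8.50, 8.83, 9.19 and 9.34 on wild-type arrays and 8.20, 8.08, 8.63 and 8.69 on Ndst1-deficient arrays. The unnamed probe ILMN_1256234 also fell, from 9.29, 9.17, 9.30 and 9.38 to 8.79, 8.72, 8.74 and 8.62 (limma adjusted p = 0.00977).

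Further called genes that were lower are named here after their values were seen. The lysosomal acid phosphatase Acp2 differed by -0.60 ± 0.12, the sorting nexins Snx11 by -0.52 ± 0.10 and Snx13 by -0.39 ± 0.076, and Vps26c, a part of an endosomal recycling complex, by -0.44 ± 0.088. The mitochondrial chaperone Trap1 differed by -0.89 ± 0.16, the mitochondrial fusion protein Mfn2 by -0.55 ± 0.11 and the mitochondrial carrier Slc25a39 by -0.42 ± 0.084. Sel1l, of the pathway that removes misfolded proteins from the endoplasmic reticulum, differed by -0.50 ± 0.10, and by 0.06 ± 0.11 on its other probe. Each of these genes passed, on the probe that stood for it, with a limma adjusted p between 0.0364 and 0.0442. Ankrd13d was detected on 2 wild-type and 0 Ndst1-deficient arrays and was at least 1.07-fold lower (limma adjusted p = 0.0452), a bound set by the lowest signal of a detected probe on each array.

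**Figure D2:**
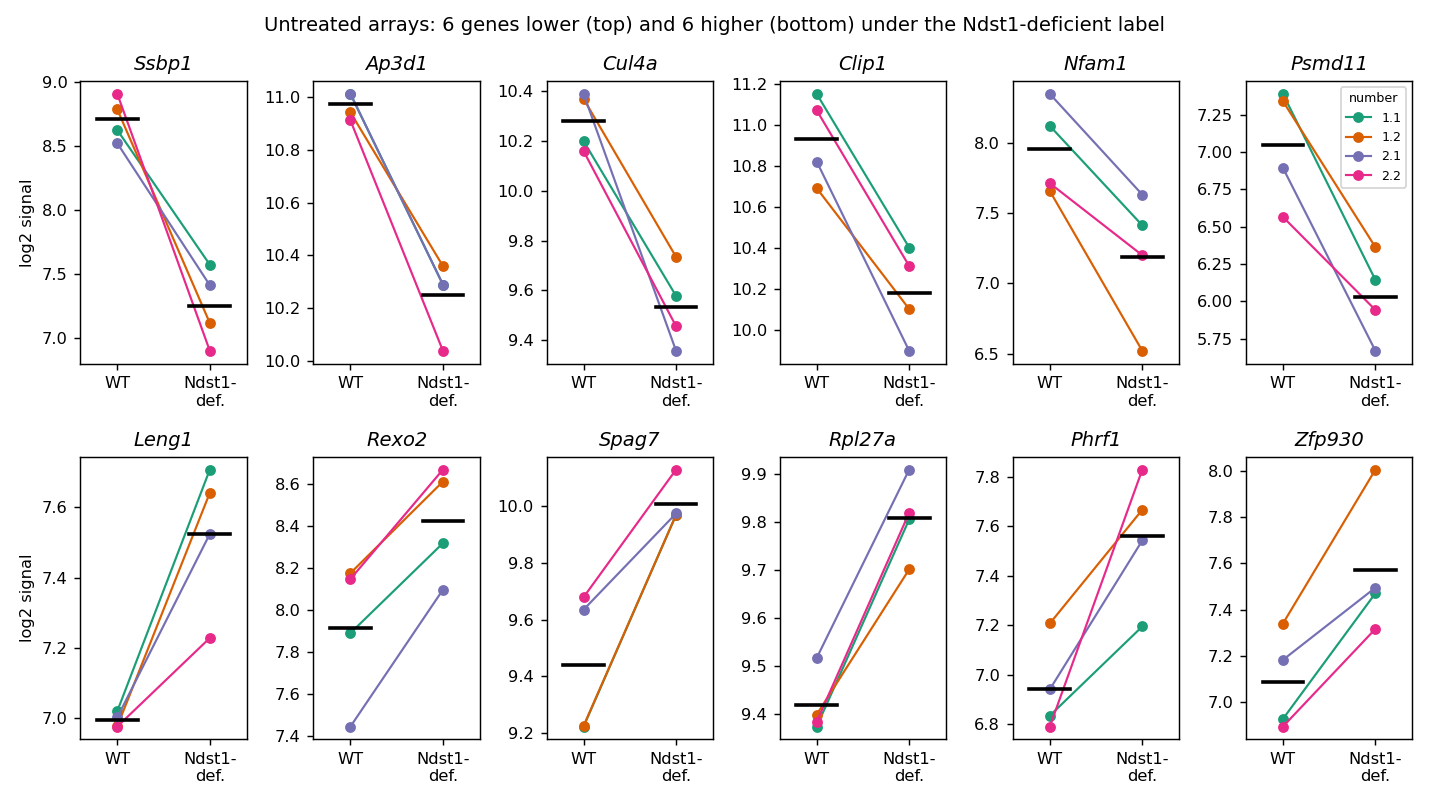
Log2 signal on the y axis for 12 called genes, with wild-type and Ndst1-deficient arrays of the same number joined by a line and the mean of each label as a black bar. Every line falls in the 6 upper panels, from Ssbp1 to Psmd11, and rises in the 6 lower ones, from Leng1 to Zfp930, and the y axes differ between panels and do not start at 0.

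Of the 13 features that were higher, Leng1 had the smallest p. It read 7.02, 6.98, 7.002 and 6.98 on wild-type arrays and 7.71, 7.64, 7.52 and 7.23 on Ndst1-deficient arrays (0.53 ± 0.082, limma adjusted p = 0.0207). The wild-type arrays were almost equal, and the Ndst1-deficient arrays all lay above them. Rexo2, a ribonuclease that degrades very short RNAs in mitochondria, read 7.89, 8.18, 7.44 and 8.15 against 8.32, 8.61, 8.10 and 8.67 (0.51 ± 0.08, limma adjusted p = 0.0207). Its labels overlapped at the low 2.1 arrays, while the 4 paired differences were all between 0.43 and 0.65.

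Acin1, a protein that joins splicing and the exon junction complex, differed by 0.70 ± 0.13 and was detected on 2 wild-type and 4 Ndst1-deficient arrays. Spag7 read 9.22, 9.22, 9.64 and 9.68 on wild-type arrays and 9.97, 9.97, 9.98 and 10.13 on Ndst1-deficient arrays (0.57 ± 0.11). The ribosomal protein gene Rpl27a read 9.37, 9.40, 9.52 and 9.38 against 9.81, 9.70, 9.91 and 9.82 (0.39 ± 0.075). Both were higher without overlap of the labels, and the 3 genes shared a limma adjusted p of 0.0408. Gmppb, which makes the GDP-mannose used in glycosylation, was not above background on any wild-type array and was at least 1.26-fold higher (limma adjusted p = 0.0351). The others were Phrf1 (0.61 ± 0.12), Zfp930 (0.49 ± 0.099), Gpatch3 (0.46 ± 0.099), Mief1 (0.47 ± 0.10), Fastk (0.35 ± 0.076), Ggact (0.45 ± 0.097) and the unnamed ILMN_2662160 (0.64 ± 0.13), with limma adjusted p between 0.0414 and 0.0492.

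For genes with several probes, the called difference belonged to the probe that stood for the gene and was mostly not seen on the others. Each gene was represented by its most often detected probe, or by the brighter one where several were detected equally often. Of the called genes, 18 had other probes past the detection filter, 26 in all. Of these, 12 differed in the direction of the called probe (46.2%) and 14 in the opposite one. At an unadjusted p under 0.05 stood 1 in the same direction, of Vps26c (-0.61 ± 0.15), and 3 in the opposite one, of Evi2a (0.27 ± 0.097), Mybbp1a (0.36 ± 0.13) and Nme7 (0.34 ± 0.11). None of the 26 passed the test over all probes, and the last 3 genes are named after their values were seen. The median size was 0.59 for the called probes, which passing the test had selected, and 0.10 for the others, which nothing had selected.

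Cul4a's other probes differed by -0.01 ± 0.16 and 0.06 ± 0.13, at wild-type means of 7.04 and 5.92. Clip1's differed by 0.01 ± 0.12 and -0.02 ± 0.089, at means of 9.62 and 8.79, so those probes were well measured. The other probe of Jak2 differed by 0.11 ± 0.20, that of Crbn by 0.02 ± 0.17, that of Acin1 by 0.01 ± 0.17 and that of Ttyh2 by -0.10 ± 0.12. Ssbp1, Ap3d1, Leng1 and Rexo2 had no other probe past the filter, so this check could not be made for them.

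The same check was made on a contrast with many more calls, mouse number 2 against mouse number 1 over all 16 arrays. There, 645 called genes had 892 other probes, and 806 of these (90.4%) followed the called probe in direction, 557 of them at an unadjusted p under 0.05. The median sizes were 0.31 for the called probes and 0.28 for the others. That contrast sets 8 arrays against 8 and is therefore more precise than the untreated genotype contrast. Over all 1881 genes with several probes, called or not, 53.7% of 2577 other probes followed the first one in the untreated genotype contrast. Which transcripts the probes of a gene cover was not tested, since the probe sequences were not used here.

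**Figure D3:**
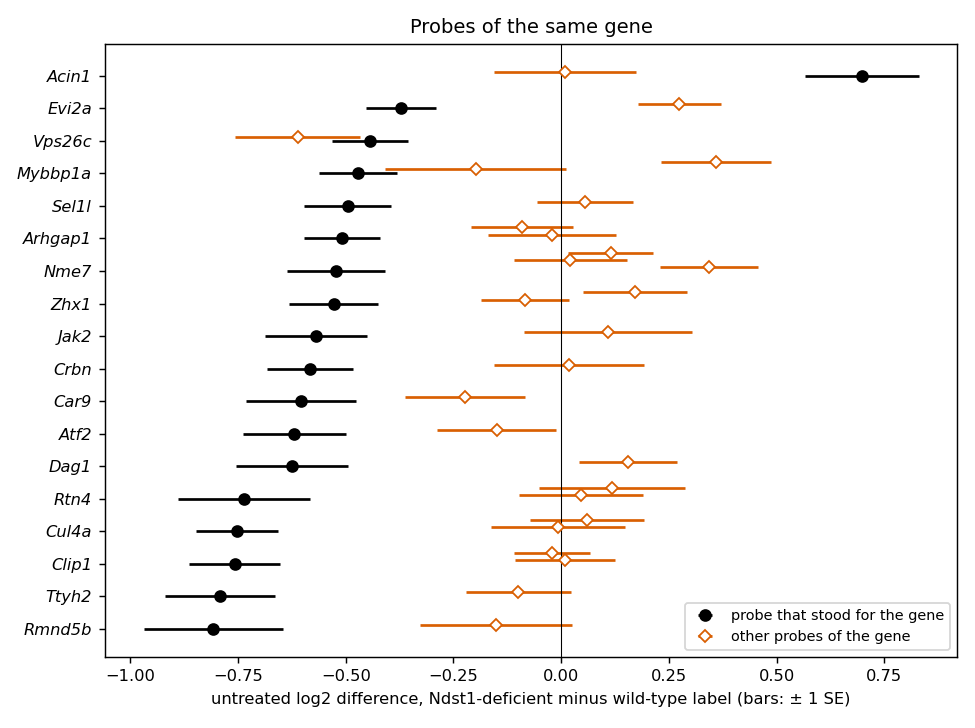
For the 18 called genes with more than 1 measured probe, the x axis gives the untreated log2 difference (Ndst1-deficient minus wild-type label) of the probe that stood for the gene (black) and of its other probes (orange diamonds), with bars of 1 SE. The orange points gather around 0 with a median size of 0.10, and only Vps26c has another probe as far out as the called one.

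Genes of mitochondrial DNA maintenance and expression included 3 called members, 2 lower and 1 higher, of 16 measured (18 listed), against 0.955% of all features. The list was drawn up with these calls known. Its median difference was 0.02 against 0.01 for all features. Ssbp1 and Rexo2 are given above. Tfb2m, a mitochondrial transcription factor that opens promoters, read 8.64, 8.97, 8.85 and 9.07 on wild-type arrays and 8.20, 8.22, 8.54 and 8.62 on Ndst1-deficient arrays (-0.49 ± 0.10, limma adjusted p = 0.0457). Its labels did not overlap. Mterf3, which acts on mitochondrial ribosome assembly and transcription, differed by 0.34 ± 0.14 and did not pass. Of the 23 measured subunits of the respiratory chain, 0 passed, with a median of -0.01. Ndufa1, a subunit of complex I, differed by -0.34 ± 0.12.

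The promoters of these 3 genes are shown because nuclear factors of the NRF1 and ETS families are known regulators of mitochondrial genes. The windows run from 250 bases before to 50 after the RefSeq start, on GRCm38.p6, read on the strand of the gene. Capitals mark the letters searched, TGCGCA for NRF1 and CCGGAAG for ETS, on either strand. The windows are chr6:40471218-40471517 on the plus strand for Ssbp1, chr1:179546227-179546526 on the minus strand for Tfb2m and chr9:48480562-48480861 on the minus strand for Rexo2.
Ssbp1: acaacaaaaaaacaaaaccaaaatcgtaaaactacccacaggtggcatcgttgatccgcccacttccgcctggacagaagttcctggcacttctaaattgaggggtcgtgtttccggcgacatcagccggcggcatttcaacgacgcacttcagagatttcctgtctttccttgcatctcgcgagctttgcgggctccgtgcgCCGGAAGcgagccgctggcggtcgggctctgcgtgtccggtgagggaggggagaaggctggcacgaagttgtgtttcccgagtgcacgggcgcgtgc
Tfb2m: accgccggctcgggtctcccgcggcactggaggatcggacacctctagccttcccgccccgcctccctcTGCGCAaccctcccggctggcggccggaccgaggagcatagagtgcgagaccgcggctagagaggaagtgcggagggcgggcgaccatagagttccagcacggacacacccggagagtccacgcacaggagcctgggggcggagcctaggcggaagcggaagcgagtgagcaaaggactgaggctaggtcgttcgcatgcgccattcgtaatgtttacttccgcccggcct
Rexo2: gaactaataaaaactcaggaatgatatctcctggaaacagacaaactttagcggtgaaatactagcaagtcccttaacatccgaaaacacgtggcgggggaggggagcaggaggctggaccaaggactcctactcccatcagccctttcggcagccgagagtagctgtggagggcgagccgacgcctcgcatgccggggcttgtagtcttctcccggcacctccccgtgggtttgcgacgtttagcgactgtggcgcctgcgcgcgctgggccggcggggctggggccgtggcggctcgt
Ssbp1 held 1 ETS match and 0 NRF1 matches, Tfb2m held 1 NRF1 match and 0 ETS matches, and Rexo2 held 0 of either. The NRF1 letters were in 11.8% of the promoters of lower genes (51 of 57 named genes had one in the table), in 10.0% of those of higher genes (10 of 12) and in 15.5% of those of all measured genes (5872 of 7082). The ETS letters were in 23.5%, 50.0% and 20.5%. Over all 27025 promoters of the table the shares were 8.06% and 9.12%.

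Among genes of heparan sulfate, to which Ndst1 belongs, 0 members passed, where 0.955% of all features did. At that share, 0 calls in lists of this size say little about the pathway. Of 29 listed synthesis genes, 14 were measured, with a median difference of 0.04. Ext1, a polymerase of the chain, read lower in all 4 pairs (-0.22 ± 0.086, limma adjusted p = 0.272), and B3gat3 and Fam20b, which build and modify the linkage to the core protein, differed by 0.25 ± 0.13 and 0.18 ± 0.094, and another probe of B3gat3 by -0.18 ± 0.17. The sulfotransferase Hs2st1 differed by 0.07 ± 0.095, and Hs6st1 by -0.10 ± 0.15, a sign that changed in 4 of the other settings tried. Of 5 measured genes of degradation, Naglu, a lysosomal glucosaminidase, differed by -0.56 ± 0.20 (limma adjusted p = 0.220). Of 9 measured proteoglycan core genes, the syndecans Sdc4 and Sdc3 differed by 0.28 ± 0.076 and -0.23 ± 0.075 (limma adjusted p = 0.116 and 0.189), each with the same sign in all 4 pairs.

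Type I interferon stimulated genes were measured for 33 of 40 listed genes, and 0 passed, where 0.955% of all features did. Their median difference was 0.03, with 17 above 0. The range ran from Mx1, an antiviral GTPase (-0.48 ± 0.17), to Irf7, a transcription factor that amplifies the response (0.37 ± 0.12), both with the same sign in all 4 pairs (limma adjusted p = 0.224 and 0.174). Isg15, a ubiquitin-like modifier, differed by -0.27 ± 0.14 and by -0.83, -0.16, -0.33 and 0.24 in the 4 pairs. Ddx58, which senses viral RNA, differed by 0.34 ± 0.11 and Irf9 by -0.24 ± 0.098. At an unadjusted p under 0.05 stood 2 members higher and 4 lower, where all features gave 5.83% and 8.47%.

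Of 14 measured genes of interferon receptors and signalling, 1 passed (0.955% of all features did) and was lower. The median was -0.16, and -0.01 with agLDL. Jak2, the kinase of the interferon gamma and several cytokine receptors, differed by -0.64, -0.65, -0.52 and -0.46 in the 4 pairs (-0.57 ± 0.12, limma adjusted p = 0.0448), and its other probe is given above. It did not pass when any 1 of the 8 arrays was left out (limma adjusted p between 0.0632 and 0.150). Ifnar2, a chain of the type I interferon receptor, differed by -0.99, -1.17, -0.68 and -0.88, a mean of -0.93 ± 0.24 that did not pass (limma adjusted p = 0.0957). Its other probe differed by -0.22 ± 0.15. The transcription factor Irf1 differed by -0.24 ± 0.094 on the probe that stood for it and by 0.04 to 0.14 on its 4 other probes. Of 15 measured chemokines, 0 passed, and their median was -0.01.

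Lipid genes were measured before any lipid load. Of 16 measured genes of lipid droplets and ester storage, 1 passed (0.955% of all features did) and was lower, and the median was -0.06. Stard3, a cholesterol transfer protein of late endosomes, differed by -0.82, -1.12, -0.46 and -0.46 in the 4 pairs (-0.71 ± 0.15, limma adjusted p = 0.0442). It passed in 1 of the 8 fits that each left out 1 array. Plin2, which coats lipid droplets, differed by -0.42 ± 0.17 with -1.003 in pair 1.2 (limma adjusted p = 0.275). Of 14 measured scavenger and lipoprotein receptors 0 passed, with Lrp1 at -0.42 ± 0.18 and Axl at -0.27 ± 0.08. Of 11 measured LXR targets 0 passed, with the exporter Abcg1 at -0.31 ± 0.16 and Apoe at -0.20 ± 0.11.

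Of 17 measured cholesterol synthesis genes 0 passed, where 0.955% of all features did. Their median was 0.09, and Lss, a cyclase of the pathway, and its regulators Insig1 and Scap, which hold or carry the factor that switches it on, differed by 0.31 ± 0.14, 0.28 ± 0.096 and -0.45 ± 0.16. Of 18 listed fatty acid oxidation genes, 13 were measured, and all 13 lay above 0 on the probe that stood for the gene, with differences from 0.05 to 0.31 and a median of 0.14. At an unadjusted p under 0.05 stood 3 of them, and 0 passed. The median was 0.13 with median scaling and 0.14 with the authors' processed values. Acaa2, the last enzyme of the cycle, differed by 0.23 ± 0.088 on the probe that stood for it and by -0.38 ± 0.14, -0.08 ± 0.09 and 0.14 ± 0.10 on its 3 other probes. Etfa, which passes electrons on from the cycle, differed by 0.09 ± 0.07 and by 0.22 to 0.25 on its 3 other probes. Eci1 differed by 0.22 ± 0.10 and Cpt2, an enzyme of fatty acid entry into mitochondria, by 0.22 ± 0.10. All 4 were higher in all 4 pairs on the probe that stood for the gene. The list was chosen with earlier results of these data known, and 52.9% of all features lay above 0.

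**Figure D4:**
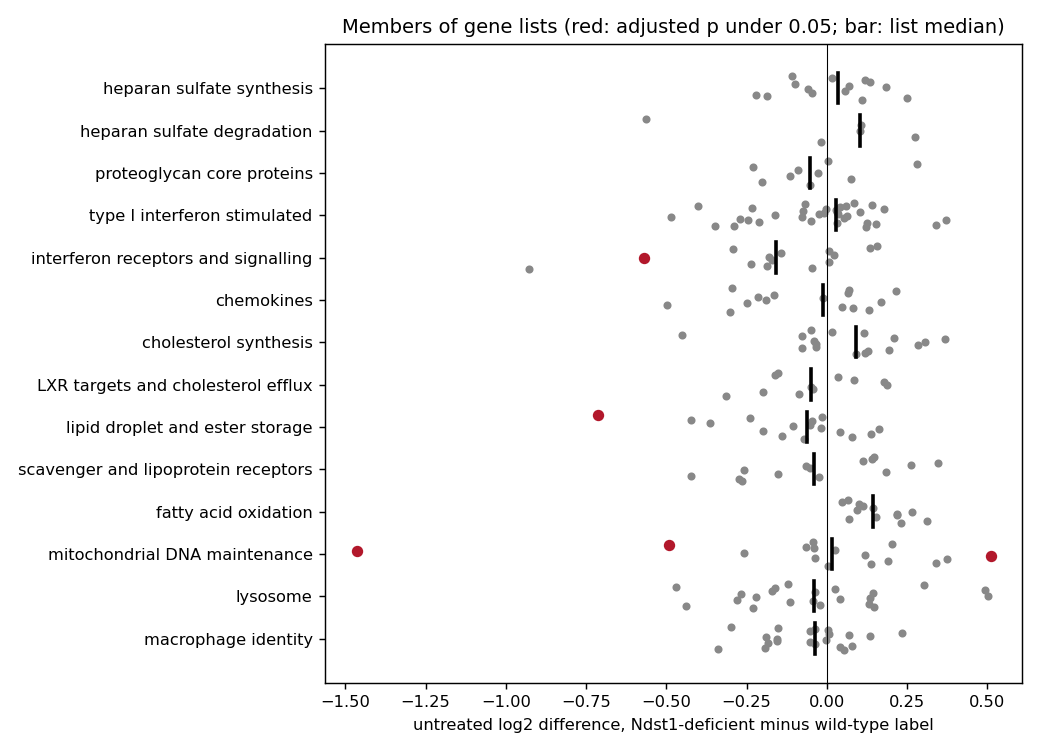
Each point is a measured member of a gene list, with its untreated log2 difference (Ndst1-deficient minus wild-type label) on the x axis, red where the limma adjusted p is under 0.05, and the black bar is the list median. The medians lie between -0.16 and 0.14. Of the called members, Ssbp1, Rexo2 and Stard3 stand at the ends of their lists. Jak2 does not, since Ifnar2, which was not called, lies lower at -0.93, and Tfb2m lies between Ssbp1 and Rexo2.

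Other lists with a called member held 1 or 2, where 0.955% of all features were called. The lists were chosen with earlier results of these data known. Cul4a was the called member of 18 measured cullin ligase genes, Clip1 of 16 microtubule genes, and Nhej1, which joins broken DNA ends, of 15 repair genes (-0.91 ± 0.18, limma adjusted p = 0.0411, detected on 2 Ndst1-deficient arrays). Acin1 and Phrf1 were the called members of the 18 measured on the splicing and exon junction list, and a role of Phrf1 in splicing was not tested. The remaining lists had 0. In the lysosome list of 22 measured genes, the channel Mcoln1 differed by 0.49 ± 0.13 and the transcription factor Tfe3 by -0.47 ± 0.11 (limma adjusted p = 0.0956 and 0.0749). In the endosome list of 20, Vta1, which helps disassemble sorting complexes, was detected on 4 wild-type and 0 Ndst1-deficient arrays and was at least 1.24-fold lower (limma adjusted p = 0.112). The stress factor Atf3 differed by 0.46 ± 0.11 (limma adjusted p = 0.0732), and the antioxidant enzymes Gstm1 and Sod2 by -0.41 ± 0.094 and -0.46 ± 0.13. Of the 17 measured genes on the antioxidant list, 0 passed and 8 lay above 0, up to Gss at 0.34 (named after its value was seen). The median of that list was -0.009.

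The genotype labels were also set against each other on the 8 arrays with agLDL, which are other arrays of the same mice and slides. There, 1 of 7647 features passed (0.0131%), the unnamed probe ILMN_1256234 (-0.69 with agLDL, -0.57 untreated). Of the 73 features, 66 had the same sign with agLDL (56 lower and 10 higher), against 64.8% of all features, and 43 had it in all 4 agLDL pairs, against 16.1% of all features. The spread used to call the 73 was estimated over all 16 arrays, so the agLDL arrays had a part in that choice. In 71 of the 73 the difference was larger untreated, in which it had been selected, and the median size was 0.57 untreated and 0.26 with agLDL. Ssbp1 differed by -1.46 untreated and by -0.12 with agLDL, Cul4a by -0.75 and -0.18, Ap3d1 by -0.72 and -0.42, Psmd11 by -1.02 and -0.63, and Phrf1 by 0.61 and 0.60.

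The test of the difference between the untreated and agLDL contrasts, the interaction, called 0 of 7647 (limma; 292 at an unadjusted p under 0.05, smallest adjusted p = 0.203). Of the 73 features, 34 were among those 292, but they were chosen by the untreated difference, which is a term of the interaction. Across all features the untreated and agLDL differences correlated with a Pearson r of 0.444 and a Spearman rho of 0.409, a description over 7647 features that share mice and slides and are not independent. Stard3 differed by -0.71 untreated and -0.10 with agLDL, and Leng1 by 0.53 and 0.03.

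**Figure D5:**
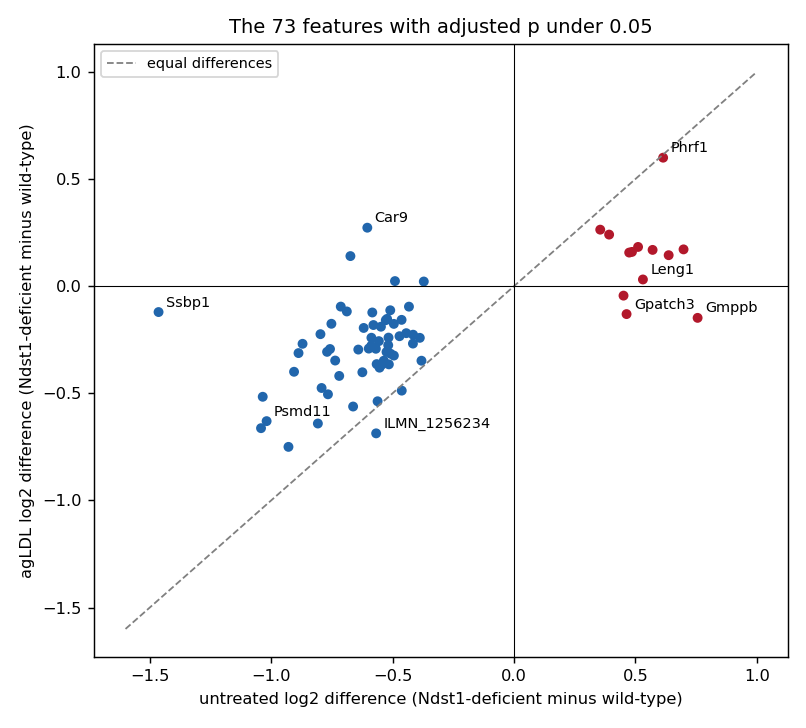
The 73 called features, with the untreated log2 difference (Ndst1-deficient minus wild-type label) on the x axis and the same difference on the 8 agLDL arrays on the y axis; the dashed line marks equal differences. Ssbp1 lies at -1.46 and -0.12, and 71 of the 73 points have a smaller difference with agLDL; the untreated value of Gmppb has only a bound.

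The 4 pairs did not carry the result equally. The paired differences over all features had a root mean square of 0.281 in pair 1.1, 0.394 in 1.2, 0.297 in 2.1 and 0.270 in 2.2, and pair 1.2 held the largest difference for 35 of the 73 features. With pair 1.2 left out 9 features were called, and with 1.1, 2.1 or 2.2 left out 7, 13 and 4. Without the wild-type 2.2 array or without the Ndst1-deficient 1.2 array, 5 features were called. The paired differences of the 2 pairs of mouse number 1 correlated across features at 0.228 and those of mouse number 2 at 0.177, and pairs of different mouse numbers between 0.135 and 0.196.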

How the data were processed

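Biotin-labelled total RNA was measured on single-colour Illumina mouse arrays. The deposited table, per the file headers and its range of values, gives the mean bead intensity of every probe, without background subtraction or normalization, and beside it a detection p-value. The authors' processed intensity values (linear scale, column medians from 11.2 to 11.3, some negative) were an alternative source, and the normalization behind them is unknown. The submitters' processing notes name GenomeStudio, with no version given in the sources used here.

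With limma 3.58.1 and statmod 1.5.0 in R 4.3.3, neqc removed the background implied by those p-values, with an offset of 16, and returned log2 values normalized by quantiles. Probes with a detection p under 0.01 on at least 4 of 16 arrays were kept (10224 of 25697). A gene was represented by its most often detected probe, ties going to the brighter one, giving 7082 genes and 565 unnamed probes. In the platform annotation 23978 probes had 1 symbol, 0 had several and 1719 were not listed. A probe not detected on any array of a label has only a bound there.

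All 16 arrays were fitted with the 4 groups and the number (1.1, 1.2, 2.1, 2.2) as a block, with 9 residual degrees of freedom, eBayes and Benjamini-Hochberg adjustment at 0.05. The contrast equals the mean of the 4 paired differences. Same-numbered arrays deviated together from their group means (correlations from 0.552 to 0.750, other numbers at most 0.153), and the numbers come from the labels. Lists were described by counts and medians, with no list test. Members, gene lists and tests were chosen with earlier results of these data known. Genes were named by rule: on each side the 12 with the smallest p among those called, of each list up to 4 with the largest difference of 1 sign in all pairs, and 18 genes chosen by hand, of which 13 were measured. The number of arrays and mice limits the precision. Promoters come from RefSeq on GRCm38.p6, and the NRF1 letters were shortened after a longer form had been searched. The genes Ndst1, Soat2 and Ddx3y are not reported here.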

Additional observations from a re-analysis of the deposited data

Results flagged for a closer look

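In 8 of the 216 groups of 4 arrays examined, 1 array stood apart from the other 3 by Dixon's criterion, which chance meets in about 1 group of 20. On wild-type arrays, the exporter Abcg1 read 8.77 on array 1.1 and 10.15 to 10.34 on the others, Ddx58 read 7.83 on 2.2 and 8.81 to 8.95 on the others, and Irf9 read 10.79 on 2.2 and 11.07 to 11.12 on the others. The growth factor response gene Etv5 read 6.88 on wild-type 2.1 and 8.68 to 9.03 on the others, and Rrm1, a subunit of ribonucleotide reductase, read 9.63 on wild-type 2.2 and 9.19 to 9.25 on the others. On Ndst1-deficient arrays, the ribosomal protein gene Rps7 read 13.52 on 1.2 and 13.86 to 13.92 on the others, the syndecan Sdc4 read 10.1 on 1.1 and 9.86 to 9.89 on the others, and Spag7 read 10.13 on 2.2 and 9.97 to 9.98 on the others.

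For 3 named genes all 4 pairs had one sign untreated and the opposite sign with agLDL. Gpatch3 differed by 0.46 untreated and -0.13 with agLDL, and the chaperone Dnajc3 by -0.26 and 0.09. Gmppb had fitted values of 0.76 and -0.15, but it was detected on 0 untreated wild-type arrays and on 1 agLDL array of each label, so these lie near background and only the bound of at least 1.26-fold holds untreated. None of the 3 passed the interaction test of limma over all features.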

How the results depend on the processing

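The count of 73 between genotype labels, untreated, depended on the fit and the processing, and the causes were not tested. It was 0 on the 8 untreated arrays alone and on mouse averages with no replicate block, 1 on mouse averages with the mouse number as replicate block, 4 on 16 arrays with no replicate block and 135 with the replicate block and mouse as random block. In the fit with 135 calls the estimated correlation between arrays of a mouse was negative, -0.095. That fit therefore made no allowance for likeness between such arrays. The count was 16 with no filter on detection, 137 with no background correction, 110 with an offset of 50, 48 with median scaling, 27 with every probe tested, 23 with arrayWeights, 94 with probes detected on all 8 arrays and 68 with the authors' processed values. Leaving out 1 array gave 5 to 63: 5 without wild-type 2.2 or Ndst1-deficient 1.2, 10 without wild-type 1.2 or 2.1, and 23, 25 and 26 without wild-type 1.1, Ndst1-deficient 1.1 and 2.2. Leaving out both arrays of a number, a choice made after seeing the data, gave 7, 9, 13 and 4 for 1.1, 1.2, 2.1 and 2.2. The interaction had 0 calls in every setting tried except median scaling, with 1; it could not be fitted on the 8 untreated arrays alone. Of 25 alternatives, Ssbp1 kept its call in 23, Ap3d1 in 22 and Cul4a in 21, but Fastk in 4 and Jak2, Zfp930 and Gpatch3 in 5. Fastk, Jak2, Mief1, Nhej1, Rpl27a and Zfp930 kept it in 0 of the 8 fits that left out 1 array. Signs turned for Hs6st1 (0.0014 with arrayWeights, 0.083 without pair 2.1, and -0.18 to 0.035 over the fits that left out 1 array), for Lpl (0.049 with the authors' values) and for the bright Lyz2 probe (-0.012 to 0.025 over the fits that left out 1 array). The median of interferon receptors and signalling was -0.12 with an offset of 50, and that of glycolysis and hypoxia 0.005 with median scaling. With 2 mice a label, the number of mice sets the precision, and signals near background carry only bounds.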
